A study of Mus musculus with 8 samples.

Results

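The genes described here are molecular chaperones and their regulators: 35 genes chosen by name, all of them among the 20029 genes measured. They were taken in 3 compartments. The cytosol, with the heat shock regulator Hsf1, has 14, the mitochondrion 3, and the endoplasmic reticulum (ER), with its stress regulator Xbp1 and its degradation machinery, 18. The RNA came from CD8+ T cells inside tumours grown under the skin from MC38-OVA, a colon carcinoma line of the mouse engineered to make ovalbumin as a model antigen. There were 8 libraries: 4 from Pglyrp1 knockout (KO) mice of the strain B6.129S4-Pglyrp1tm1.1Lky/J, named KO 1 to KO 4, and 4 from C57BL/6J wild-type (WT) mice, named WT 6 to WT 9. The KO mice lack Pglyrp1, a secreted protein that recognises bacterial peptidoglycan, in every cell and not in T cells alone. Mice of both genotypes received the same tumour cells, and the tumours were digested with collagenase D at 37 degrees Celsius for 20 min before sorting, so every library passed through that step. For each library 1000 live cells were sorted by CD45, TCRβ and CD8. The submitters count 4 mice a group, which is 1 library a mouse, and the mice's age is not given in the sources used here. Values are in TPM (transcripts in 1000000), here the deposited values rescaled to a sum of 1000000 per library. The authors' name for them implies a level per transcript length, which was not checked, so levels are compared between genes only on that reading.

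Chaperones bind unfolded protein and help it fold. In the cytosol, HSP70 proteins work with J-domain partners and nucleotide exchange factors and pass clients to HSP90, and the transcription factor HSF1 induces many of these genes after heat or protein damage by binding heat shock elements. In the ER, the HSP70 protein BiP, lectin chaperones and disulfide isomerases fold secreted and membrane proteins, while the unfolded protein response, through the sensors IRE1, PERK and ATF6 and the factor XBP1, raises their genes through ER stress elements. CD8 T cells enlarge this secretory machinery when they become effectors that release cytokines and granule proteins.

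Promoter sequences are shown first, because the 2 systems are regulated through different elements. RefSeq promoter windows (GRCm38.p6, the mm10 build, 250 bases before to 50 after the start) were found for 28 of the 35 genes, 10 cytosolic, 2 mitochondrial and 16 ER, Vimp under its current symbol Selenos. For 22 of the 28, bases after the start were found near the opening of a GENCODE transcript of the gene. By the GENCODE gene bounds, the stretches printed for Hspa5 and Dnaja1 lie inside the gene, and that for Hspe1 inside Hspd1. The ER stress element, searched on both strands as CCAAT, any 9 bases and CCACG, was found in 0.119% of all 32851 windows and in those of 7 ER members, and in no window of the cytosolic or mitochondrial members. The ER stress element II, searched as ATTGG, any 1 base and CCACG, was in 0.0365% of all windows and in that of Herpud1. In the stretches of 60 bases below, written 5′ to 3′ on the gene's strand, capitals mark the match, which reads as its reverse complement in Calr and Creld2.
Hspa5, chr2:34772004-34772063, plus strand: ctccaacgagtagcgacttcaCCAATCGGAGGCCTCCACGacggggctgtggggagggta
Hsp90b1, chr10:86705618-86705677, minus strand: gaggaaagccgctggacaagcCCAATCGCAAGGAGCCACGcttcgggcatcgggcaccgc
Calr, chr8:84847055-84847114, minus strand: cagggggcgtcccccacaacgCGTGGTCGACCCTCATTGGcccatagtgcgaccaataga
Canx, chr11:50325780-50325839, minus strand: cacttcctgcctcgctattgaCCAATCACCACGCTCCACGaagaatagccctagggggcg
Creld2, chr15:88819499-88819558, plus strand: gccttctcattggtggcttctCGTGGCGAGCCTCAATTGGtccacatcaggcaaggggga
Pdia6, chr12:17266470-17266529, plus strand: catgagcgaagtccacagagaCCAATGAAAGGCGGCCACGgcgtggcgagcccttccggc
Dnajc3, chr14:118937806-118937865, plus strand: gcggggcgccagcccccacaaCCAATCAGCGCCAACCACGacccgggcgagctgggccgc
Herpud1, chr8:94386352-94386411, plus strand: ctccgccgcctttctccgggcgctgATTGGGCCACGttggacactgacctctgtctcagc
Hsp90b1 held a second match 107 bases before its start. The ATF6 site TGACGTGG was in 0.676% of all windows and in none of the members'. A match is a run of letters and not a measured binding site, and a missing match says only that the letters are absent from the window.

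Heat shock elements lay on the other side of this division. The form with 3 units, searched on both strands as GAA, TTC and GAA or as TTC, GAA and TTC with any 2 bases between units, was in 0.603% of all windows, and among the members in those of Chordc1, Hsph1, Hspd1 and Hspe1. In Chordc1 and Hsph1 the matches lay across or after the start. The short form, with 2 units, GAANNTTC and TTCNNGAA, which the longer form contains, was in 15.1% of all windows, in those of 7 of 10 cytosolic and 2 of 2 mitochondrial members, and in those of 0 of 16 ER members. The following stretches are shown, with the match in capitals: the form with 3 units in Hspe1 and the short form in Hspa1a and Dnaja1.
Hspe1, chr1:55088035-55088094, plus strand: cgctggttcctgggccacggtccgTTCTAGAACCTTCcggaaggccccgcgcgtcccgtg
Hspa1a, chr17:34972227-34972286, minus strand: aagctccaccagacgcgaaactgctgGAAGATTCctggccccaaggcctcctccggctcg
Dnaja1, chr4:40722318-40722377, plus strand: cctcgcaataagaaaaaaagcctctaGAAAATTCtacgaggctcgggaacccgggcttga
Hspe1 and Hspd1 are transcribed away from each other, and their windows share 285 bases, so the printed stretch serves both genes. Hspa1b has the same stretch as Hspa1a, and 247 of the 250 bases before the start are identical between them.

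Pglyrp1, the gene knocked out, was at 0 TPM in each KO library and at 123, 209.6, 208 and 153 TPM in WT 6 to WT 9. The T cell genes Cd3d, Cd3e, Cd3g, Cd247, Cd8a and Cd8b1 were above 200 TPM in every library. Genes of other cell types were also measured. The summed level of 20 myeloid markers was 12324 and 15354 TPM in KO 3 and KO 4, against 1132 and 1048 in KO 1 and KO 2 and 717 to 2121 in WT libraries. Of the 17 of these markers that were tested, 16 were higher in KO 3 and KO 4 than in all other libraries. Csf1r, a receptor gene on the myeloid list, was at 38.9 and 109 TPM in KO 3 and KO 4 and at 0 to 6.93 TPM elsewhere. Genes of naive and memory T cells (7 genes) summed to 2220.2 and 1988 TPM in WT 6 and WT 9 and to 365 to 1314 TPM in the other libraries. Markers of B and plasma cells, a secretory cell rich in ER, summed to 6.65 to 25.1 TPM in KO and 8.55 to 53.6 TPM in WT libraries. Of the plasma cell genes, Tnfrsf17 was at 0 in all 8 libraries and Igj and Derl3 in 7. Mzb1 was at 8.68 and 4.21 TPM in KO 3 and KO 4, 4.06 in WT 6 and 0 elsewhere, and Sdc1, which other cell types also express, at 4.19 and 7.57 TPM in KO 3 and KO 4 and 0 to 1.35 TPM elsewhere. The 10 tumour epithelial and stromal markers summed to 138 TPM in KO 4, with Krt8 at 45.4 and Col3a1 at 35.3 TPM. In the other libraries they summed to 20.7 to 39.0 TPM. Pecam1, on the same list, went the other way, at 12.2 TPM in KO 4 and 16.8 to 37.0 TPM elsewhere. The mean log2(TPM + 1) of the list was 3.19 in KO 4, 1.64 in KO 3 and 0.71 to 0.85 in the other libraries. In bulk libraries such as these, fewer cells of a type and less RNA per cell cannot be told apart.

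Most ER members had higher mean levels in KO than in WT cells, and most cytosolic heat shock members had lower ones unless values were left unscaled, but no single member passed the test across all genes. The log2 fold change of TPM + 1, KO minus WT, was positive for 16 of 18 ER members and for 3 of 14 cytosolic members, where 55.2% of the 10732 genes tested were positive and 44.8% negative. With values left as deposited, 18 ER and 8 cytosolic members were positive, where 77.5% of all genes were. The median fold change was 0.45 for ER members and -0.21 for cytosolic members, beside 0.041 for all genes tested. In limma, with Benjamini-Hochberg adjustment over all genes tested, 0 of the 35 members passed at 0.05, where 0.028% of all genes did (0.0186% higher and 0.00932% lower in KO), and the smallest adjusted p among them was 0.237. At an unadjusted p under 0.05 there were 5 members with higher levels in KO, all of them in the ER, where 6.01% of all genes were, and 3 with lower levels, all of them cytosolic, where 3.07% of all genes were. With values left as deposited, where 77.5% of all genes were positive, 10 were higher and 0 lower at that p. With 1 library left out, the number higher at that p ran from 3, without KO 3, KO 4 or WT 6, to 12, without KO 1. Of all genes tested, 52.6%, 51.6% and 52.0% were positive without KO 3, KO 4 or WT 6, and 58.4% without KO 1. The shares of all genes at that p in these settings are not given here, so the counts are descriptions. All 35 members passed the filter on low values. After the values were seen, 2 pairs of libraries were also left out. KO 3 and KO 4 had the highest summed ER levels of the KO libraries, and WT 6 and WT 9 the lowest of the WT libraries. Leaving them out lowers the summed ER difference by construction, so the values that follow are a description and not a test. Without KO 3 and KO 4 there were 12 positive ER members with a median of 0.12. Without WT 6 and WT 9 there were 11 with 0.19, and without both pairs 7 of 18 with -0.078. Of all genes tested, 47.5%, 45.9% and 37.5% were positive in these settings, so without both pairs the ER share was near that of all genes. The cytosolic median was -0.32, -0.17 and -0.29 in the same settings.

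**Figure D1:**
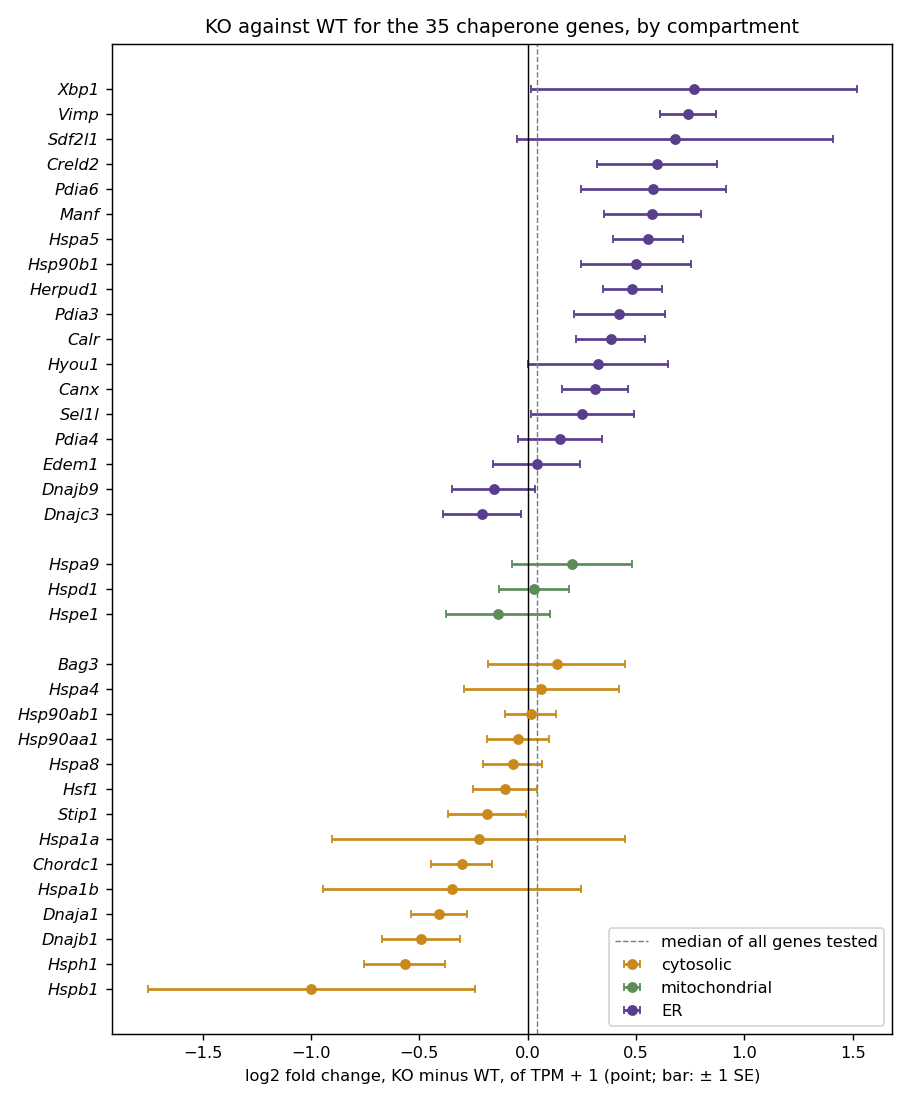
Fold change of each of the 35 members, log2 of TPM + 1, KO minus WT (x axis), with bars of 1 standard error and members grouped by compartment (y axis). ER members lie mostly to the right of 0, with Xbp1 and Sdf2l1 the least precise, and cytosolic members mostly to the left. With unscaled values 8 of 14 cytosolic members were positive, where 77.5% of all genes were. Relative to the median of all genes, the cytosolic median was -0.24 with unscaled values and -0.25 with rescaling.

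Summed over the 18 ER members, KO 1 to KO 4 had 1622, 2088, 2767 and 2562 TPM and WT 6 to WT 9 had 1375, 1739.9, 1965 and 1384 TPM. The groups overlapped, since KO 1 lay below WT 7 and WT 8. The means were 2259.98 ± 512 and 1616 ± 288 TPM (SD, n = 4 each). The 14 cytosolic members summed to 4819.9, 4759, 5412 and 5044 TPM in KO and 5044, 5610.03, 5668 and 5135 TPM in WT libraries, again with overlap. Hspa8 alone made up 43.8% of the summed level of all 35 members. Without it the cytosolic sum was 1687, 1672, 1899 and 1836 TPM in KO 1 to KO 4 and 1949, 2086, 1939 and 1885 TPM in WT 6 to WT 9. Within a library, the mean log2(TPM + 1) of the ER members minus that of the cytosolic members was -0.21, 0.25, 0.33 and 0.65 in KO 1 to KO 4, and -0.45, -0.56, -0.076 and -0.46 in WT 6 to WT 9. Scaling a library moves this balance only through the pseudocount. It was highest in KO 4 and lowest in WT 7, and KO 1 lay below WT 8, so the groups overlapped by 1 library on either side.

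**Figure D2:**
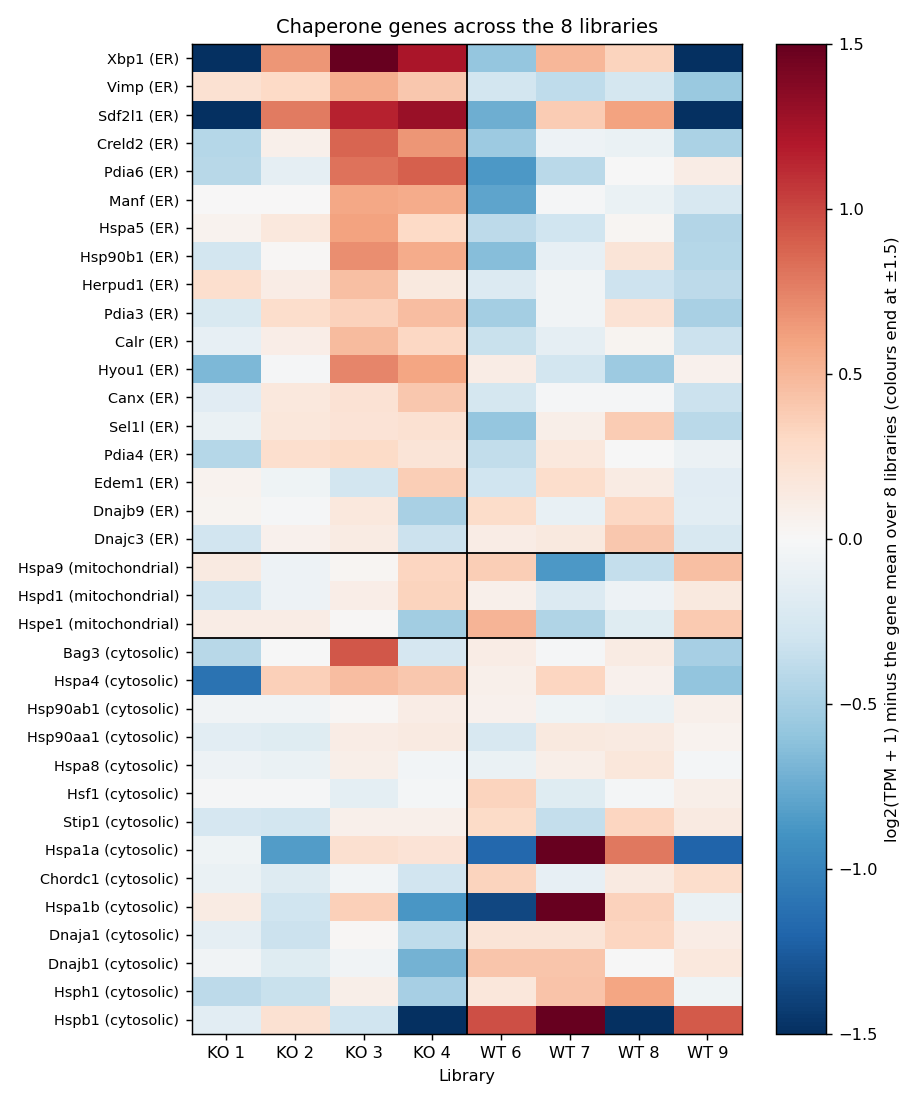
Level of each member in each library, as log2(TPM + 1) minus the gene's mean over the 8 libraries (colour), with genes as rows by compartment and libraries as columns. In most ER rows KO 3 and KO 4 are highest, and in Xbp1 and Sdf2l1 the libraries KO 1, WT 6 and WT 9 are lowest.

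Among the ER chaperones proper, Hspa5 (chromosome 2, 34771970 to 34777547) encodes BiP, the HSP70 of the ER. It was at 384, 412, 561 and 456 TPM in KO 1 to KO 4 and at 282, 301, 377 and 272 TPM in WT 6 to WT 9. Every KO library was above every WT library, by a narrow margin between KO 1 and WT 8. The means were 453 ± 77.8 and 308 ± 47.6 TPM (SD, n = 4 each), and the log2 fold change in limma was 0.55 (SE 0.16, adjusted p = 0.412). Manf (chromosome 9, 106838312 to 106891979), a cofactor of BiP that is also secreted under ER stress, was at 36.0, 36.0, 54.1 and 53.4 TPM in KO libraries and 20.3, 35.5, 33.3 and 30.3 TPM in WT libraries. Its groups were apart by 36.0 TPM in KO 2 against 35.5 in WT 7, about 1 deposited unit, with KO 3 and KO 4 well above the rest and WT 6 well below (log2 fold change 0.57, SE 0.22, limma adjusted p = 0.508). The fold changes without KO 3 and KO 4 were 0.38 for Hspa5 and 0.29 for Manf, and without both pairs 0.24 and 0.063. Groups were apart with KO higher in 4 of 18 ER members, namely Vimp, Herpud1, Hspa5 and Manf, and in 2.62% of all genes tested.

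Hsp90b1, which encodes GRP94, the HSP90 of the ER, was at 199, 245, 392 and 355 TPM in KO 1 to KO 4 and 155, 221, 276 and 179 TPM in WT 6 to WT 9. KO 3 and KO 4 were highest, and the other libraries overlapped (log2 fold change 0.50, SE 0.25, limma adjusted p = 0.585). Creld2, a small ER protein induced by ER stress, had KO 3 and KO 4 highest as well, with 55.4, 79.5, 139 and 119.9 TPM in KO libraries and 51.2, 71.1, 70.1 and 53.9 TPM in WT libraries. Hyou1, the nucleotide exchange factor GRP170, was the ER member of lowest mean level, from 6.93 TPM in KO 1 to 20.04 TPM in KO 3. The J-domain partners of BiP, Dnajb9 and Dnajc3, were the 2 ER members with a negative fold change, which turned positive with unscaled values. Dnajb9 lay between 24.0 and 38.0 TPM in KO libraries and between 30.3 and 42.4 TPM in WT libraries. Dnajc3 was at 35.3, 45.3, 47.3 and 34.5 TPM in KO libraries and 46.7, 48.1, 57.6 and 36.6 TPM in WT libraries. Both overlapped widely between groups, and the 95% intervals of their fold changes were -0.59 to 0.28 and -0.62 to 0.20.

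The lectin chaperones and disulfide isomerases, which fold glycoproteins and form their disulfide bonds, all had positive fold changes. Calr, the lectin calreticulin, was at 159.8, 188, 242 and 217 TPM in KO 1 to KO 4 and 138, 158, 179 and 139 TPM in WT 6 to WT 9. KO 1 lay below WT 8, and all other KO libraries were above all WT libraries (log2 fold change 0.38, SE 0.16, limma adjusted p = 0.527). The fold change of Calr was 0.18 without KO 3 and KO 4 and 0.041 without both pairs. Canx, the membrane-bound lectin calnexin, averaged 137 ± 21.8 TPM over KO libraries and 109 ± 12.1 TPM over WT libraries, and Pdia3, the isomerase that works with both lectins, 319.8 ± 61.3 and 240.1 ± 59.8 (SD, n = 4). Pdia6, an isomerase that binds BiP, was at 142 and 150.2 TPM in KO 3 and KO 4 and between 43.9 and 86.9 TPM in the other libraries. Pdia4 had the smallest difference of these isomerases, with means of 94.8 ± 19.999 (KO) and 84.6 ± 12.8 TPM (WT), and was low in KO 1 (65.1 TPM). The log2 fold changes were 0.31 for Canx, 0.42 for Pdia3, 0.58 for Pdia6 and 0.15 for Pdia4, with limma adjusted p from 0.574 to 0.844.

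Genes of ER-associated degradation, which returns misfolded proteins to the cytosol, held the 2 members with the smallest p. Vimp (chromosome 7, 66079649 to 66089405), also named Selenos, encodes a selenoprotein of the ER membrane that recruits the ATPase VCP. It was at 92.9, 97.6, 116 and 105 TPM in KO 1 to KO 4 and at 65.0, 60.3, 66.0 and 53.5 TPM in WT 6 to WT 9. The groups were far apart relative to their spread: the lowest KO library was 92.9 TPM and the highest WT library 66.0 TPM. The means were 103 ± 9.99 and 61.2 ± 5.71 TPM (SD, n = 4 each). In limma the log2 fold change was 0.74 (SE 0.13, adjusted p = 0.237). Exact permutation of the 8 libraries, two-sided, gave p = 0.0286, the smallest value that 4 against 4 allows. Any gene whose groups do not overlap gets this value, here also Hspa5, Manf, Herpud1, Dnaja1 and Dnajb1. The fold change of Vimp was much the same without the pairs of libraries that stood apart: 0.63 without KO 3 and KO 4, 0.69 without WT 6 and WT 9 and 0.59 without both. Vimp lies on the chromosome of the targeted gene, 47.2 Mb from Pglyrp1, and Bag3 is the other member there.

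Herpud1 (chromosome 8, 94386438 to 94395377), a membrane protein of the same degradation complex, was at 89.4, 81.0, 103 and 83.3 TPM in KO libraries and 65.0, 72.0, 60.1 and 57.0 TPM in WT libraries. Its groups were apart as well, and its highest KO library was KO 3 (log2 fold change 0.48, SE 0.14, limma adjusted p = 0.395). The value was 0.42 without KO 3 and KO 4 and 0.37 without both pairs. Edem1, a lectin that hands glycoproteins to degradation, and Sel1l, the scaffold of the HRD1 ligase, were low and overlapped. Edem1 ranged from 15.8 to 25.7 TPM and Sel1l from 8.94 to 18.4 TPM over the 8 libraries, with fold changes of 0.042 (SE 0.20) and 0.25 (SE 0.24).

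Xbp1 (chromosome 11, 5520659 to 5525893) encodes the transcription factor of the IRE1 branch, whose mRNA is spliced on ER stress; the table gives 1 value per gene, so spliced and unspliced mRNA are not separated. Xbp1 was at 15.2, 92.8, 168 and 138 TPM in KO 1 to KO 4 and at 38.6, 82.8, 74.0 and 16.1 TPM in WT 6 to WT 9. The lowest value was in a KO library, KO 1, beside WT 9, and the highest were in KO 3 and KO 4. Sdf2l1, an ER protein that works with J-domain proteins and a textbook target of the unfolded protein response, gave nearly the same order, with 13.5, 90.1, 118 and 130.03 TPM in KO libraries and 30.9, 68.4, 79.5 and 16.5 TPM in WT libraries. For both genes the libraries of a genotype differed more than the group means did: the highest library was 10.99 times the lowest for Xbp1 and 9.62 times for Sdf2l1. The log2 fold changes of 0.77 (SE 0.75, 95% interval -0.92 to 2.46) and 0.68 (SE 0.73) had limma adjusted p of 0.785 and 0.807. Without both pairs of libraries they were -1.02 and -1.04.

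**Figure D3:**
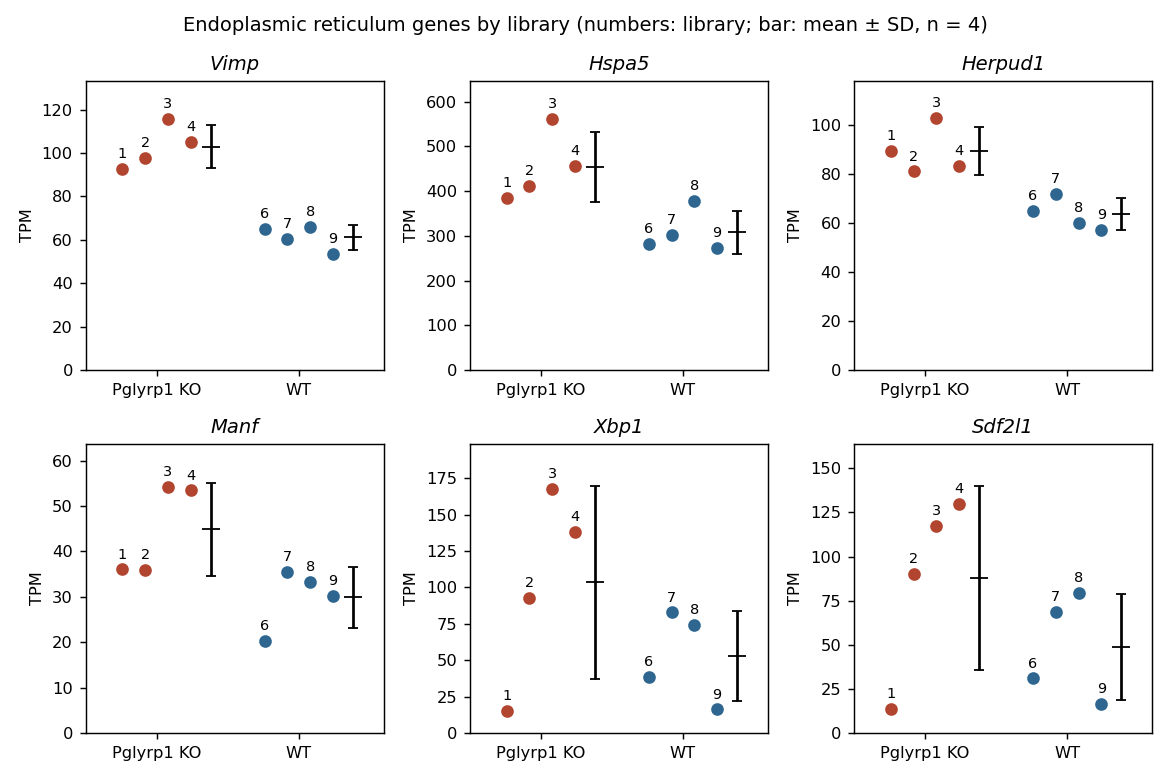
TPM (y axis) of 6 ER members in each library (points, numbered by library) with the mean and SD of each group of 4 (bars). Vimp, Hspa5, Herpud1 and Manf have every KO library above every WT library, while Xbp1 and Sdf2l1 spread within both groups, with KO 1, WT 6 and WT 9 low.

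The 3 libraries that were low for Xbp1 were low for other ER members too, a grouping chosen after the values were seen. In 8 of 18 ER members KO 1, WT 6 and WT 9 were all below each of the other 5 libraries (Canx, Creld2, Hsp90b1, Pdia3, Pdia4, Sdf2l1, Sel1l and Xbp1), as in 11.6% of all genes tested. This held for 0 of 14 cytosolic and 0 of 3 mitochondrial members. Xbp1 set the grouping, so it is among the 8 by construction, and the count is a description. The same 3 libraries had the highest summed levels of naive and memory T cell genes, 1314 TPM in KO 1, 2220.2 in WT 6 and 1988 in WT 9, with at most 914 TPM in the others. At the upper end, KO 3 and KO 4 were both above each of the other 6 libraries in 12 of 18 ER members and 1 of 14 cytosolic members (Hspa4), as in 14.2% of all genes tested. These are the libraries with the high myeloid markers given above. KO 4, with the highest ER minus cytosolic balance, also had the highest sum of epithelial and stromal markers. The part of any of these marker lists in the ER levels was not tested.

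ER members with and without an ER stress element in the window had fold changes of both signs. The 8 ER members with an ER stress element or element II had a median log2 fold change of 0.49, from -0.21 for Dnajc3 to 0.60 for Creld2. The 8 with a window and neither element had a median of 0.34, from -0.16 for Dnajb9 to 0.77 for Xbp1. Both sets had 7 positive members, and no test was made. Dnajc3, whose stretch is printed above, and Vimp, which held neither element, lie on opposite sides of the ER members.

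Beyond the members, 43 other genes of ER folding, translocation and degradation were listed, and 41 of them were tested. Of these, 33 had a positive fold change (median 0.24), 0 passed the limma adjusted threshold, and 6 had an unadjusted p under 0.05 with higher levels in KO and 0 with lower. Of all genes tested, 55.2% were positive, 6.01% higher and 3.07% lower at that p. KO 3 and KO 4 were the highest libraries in 14 of the 41 genes, where they were in 14.2% of all genes tested. KO 1, WT 6 and WT 9 were the lowest in 11, where they were in 11.6% of all genes tested. Fkbp2, an ER prolyl isomerase, averaged 95.3 ± 16.8 (KO) and 60.04 ± 16.3 TPM (WT; SD, n = 4), with a limma log2 fold change of 0.68 and SE of 0.22 (adjusted p = 0.464). P4hb, the most widely known disulfide isomerase, had 317 ± 74.4 and 203 ± 43.8 TPM (log2 fold change 0.64, limma adjusted p = 0.472), and both genes overlapped between groups. The list of 14 sensors and effectors of the unfolded protein response had 10 positive genes and a median of 0.31. The adjusted threshold was passed by 0, and 3 were higher and 0 lower at an unadjusted p under 0.05. KO 3 and KO 4 were highest in 4, where they were in 14.2% of all genes tested. Atf4, the transcription factor of the PERK branch, was at 182, 191, 207 and 174 TPM in KO libraries and 121, 170.5, 153 and 132 TPM in WT libraries. Its groups were apart, though KO 4 and WT 7 were close (log2 fold change 0.39, SE 0.14, limma adjusted p = 0.494). Ppp1r15b, a constitutive phosphatase subunit that opposes the signal of that branch, was at 40.5, 24.2, 37.4 and 37.9 TPM in KO libraries and 19.5, 25.6, 29.5 and 23.2 TPM in WT libraries (log2 fold change 0.49, limma adjusted p = 0.527). Of the 14 genes 4 were negative, and the lowest was its relative Ppp1r15a (log2 fold change -0.45, SE 0.40, limma adjusted p = 0.763), with groups that overlapped.

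In the cytosol, the groups did not overlap for 2 members, Dnaja1 and Dnajb1, both J-domain partners of HSP70. Dnaja1 (chromosome 4, 40722150 to 40737149) was at 138, 122, 154 and 116 TPM in KO 1 to KO 4 and 173, 173, 191 and 164 TPM in WT 6 to WT 9. Every KO library was below every WT library (means 132 ± 17.0 and 175 ± 11.3 TPM; SD, n = 4), and limma gave a log2 fold change of -0.41 with SE 0.13 (adjusted p = 0.456). Dnajb1 (chromosome 8, 83608193 to 83612653), the stress-inducible HSP40, was at 104, 94.9, 104 and 65.6 TPM in KO libraries and 144, 143, 108 and 120.4 TPM in WT libraries. Its groups were also apart, with KO 4 far below the others and a small gap between KO 1, KO 3 and WT 8 (log2 fold change -0.49, SE 0.18, limma adjusted p = 0.498). Groups were apart with KO lower in these 2 of 14 cytosolic members and in 2.4% of all genes tested. Hsph1, the HSP110 exchange factor that resets HSP70, was at 58.6, 61.4, 82.6 and 54.7 TPM in KO libraries and 87.4, 105, 117 and 74.3 TPM in WT libraries, with only KO 3 inside the WT range (log2 fold change -0.57, SE 0.19, limma adjusted p = 0.472). These 3 kept a negative fold change without KO 3 and KO 4 (-0.43, -0.36 and -0.65) and without both pairs (-0.49, -0.32 and -0.88). With values left as deposited, which shifts the median of all genes from 0.041 to 0.27, they were -0.18, -0.27 and -0.34.

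The main HSP70 and HSP90 chaperones varied little between libraries. Hspa8, the constitutive HSP70 and the most abundant member, was at 3133, 3087, 3514 and 3208 TPM in KO 1 to KO 4 and 3096, 3524, 3728 and 3249.8 TPM in WT 6 to WT 9. Hsp90ab1, the constitutive HSP90, ranged from 951 to 1105 TPM and Hsp90aa1, its inducible form, from 84.5 to 112 TPM. For each of these 3 genes the groups overlapped and the highest library was at most 1.32 times the lowest. The 95% intervals of the log2 fold change were -0.38 to 0.24 for Hspa8, -0.25 to 0.28 for Hsp90ab1 and -0.37 to 0.28 for Hsp90aa1. Hsf1, the regulator, was at 38.8, 39.0, 35.6 and 38.7 TPM in KO libraries and 49.99, 34.6, 38.5 and 42.1 TPM in WT libraries, so the KO libraries lay within the WT range (log2 fold change -0.10, SE 0.15).

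The inducible HSP70 genes Hspa1a and Hspa1b (chromosome 17, 34969190 to 34972156, and 34956436 to 34959238) had the largest ratios of highest to lowest library among the cytosolic members that were above 0 in all 8. Hspa1a was at 63.1, 36.3, 77.8 and 76.2 TPM in KO 1 to KO 4 and at 28.4, 275, 115 and 27.9 TPM in WT 6 to WT 9. WT 7 and WT 8 were highest and WT 6 and WT 9 lowest, with all KO libraries between them. Hspa1b was at 5.20, 3.63, 6.28 and 2.10 TPM in KO libraries and 1.22, 18.9, 6.25 and 4.33 TPM in WT libraries, again highest in WT 7. The genes are near-identical, so reads can be split between them; Hspa1a took 86.6% to 97.3% of their sum, and this division is uncertain. Summed, they were at 294 TPM in WT 7 and 29.7 TPM in WT 6. The log2 fold change was -0.23 (SE 0.68) for Hspa1a and -0.24 for the sum, and without WT 7 Hspa1a had 0.42.

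**Figure D4:**
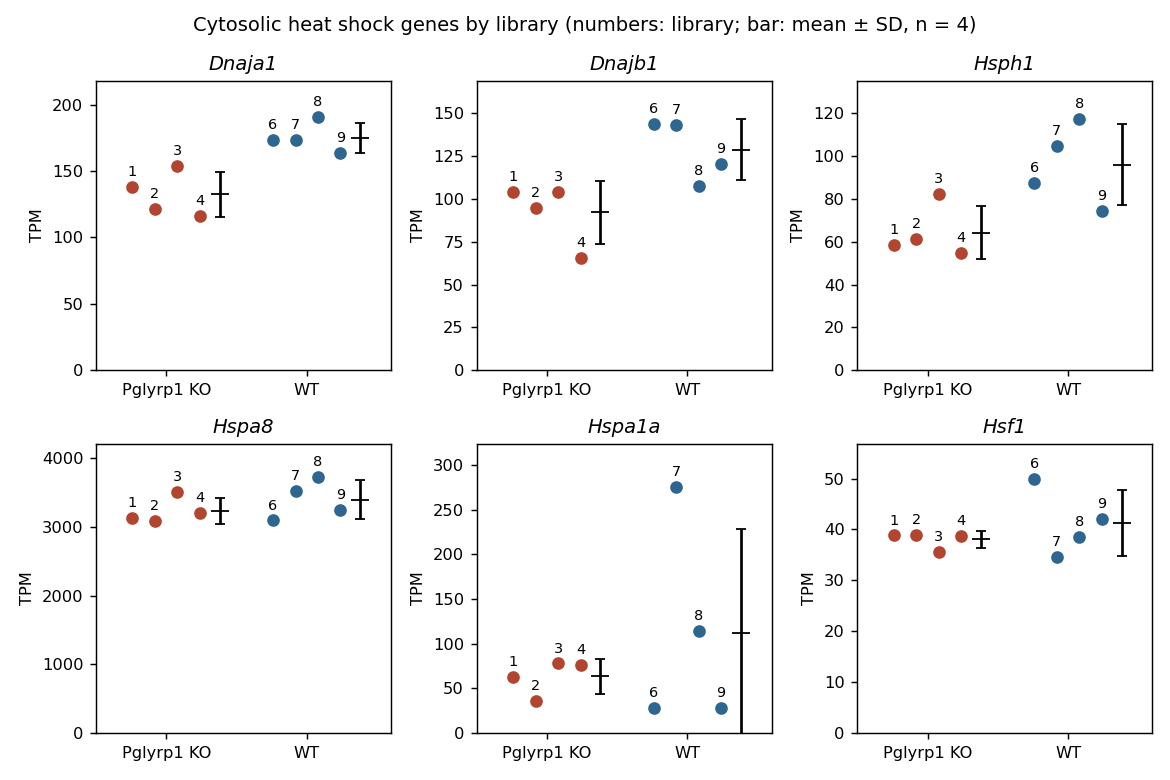
TPM (y axis) of 6 cytosolic members in each library (points, numbered by library) with the mean and SD of each group of 4 (bars; the WT bar of Hspa1a is clipped at 0). Dnaja1 and Dnajb1 have every KO library below every WT library, Hspa8 and Hsf1 overlap, and Hspa1a is highest in WT 7.

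The other cytosolic members did not separate the groups. Chordc1, an HSP90 partner, averaged 64.7 ± 4.77 (KO) and 80.5 ± 11.02 TPM (WT; SD, n = 4; limma log2 fold change -0.30, adjusted p = 0.561), with WT 7 inside the KO range. Stip1, which bridges HSP70 and HSP90, had 122 ± 16.5 and 140.3 ± 28.1 TPM. Hspa4, another HSP110 protein, was at 22.9 TPM in KO 1 and 33.0 TPM in WT 9 and at 52.8 TPM or more elsewhere. Bag3, an exchange factor of chaperone-assisted autophagy, was at 16.5 TPM in KO 3 and at 5.51 to 9.03 TPM in each of the others. Hspb1, the small heat shock protein HSP27, was listed at 0 in KO 4 and WT 8 and reached 11.7 TPM in WT 7, the lowest mean level of any member. Over all genes tested, 55.2% were positive, and 6.01% were higher and 3.07% lower at an unadjusted p under 0.05. Of 40 other cytosolic chaperone genes, 38 were tested, with 20 positive and a median of 0.019. The adjusted threshold was passed by 0 of them. At that unadjusted p there were 2, both higher in KO. These were Tcp1, a subunit of the chaperonin TRiC, at 198 ± 17.2 and 162 ± 3.67 TPM with groups apart, and St13, an HSP70 partner, at 73.1 ± 4.75 and 53.9 ± 14.4 TPM (SD, n = 4; limma adjusted p = 0.516 and 0.527).

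The 3 mitochondrial chaperones followed neither compartment. Hspd1 (HSP60) and Hspe1 (HSP10), which form the mitochondrial folding chamber and share the promoter printed above, ranged from 92.5 to 145 and from 164 to 335 TPM. Hspe1 was at 254, 254, 239 and 164 TPM in KO 1 to KO 4 and 335, 172, 207 and 309 TPM in WT 6 to WT 9, highest in WT 6 and WT 9. Hspa9, the mitochondrial HSP70 that pulls proteins into the matrix, was at 96.0, 83.1, 89.4 and 109.8 TPM in KO libraries and 113, 47.7, 68.1 and 119.97 TPM in WT libraries, again highest in WT 6 and WT 9 and lowest in WT 7. The log2 fold changes were 0.028 (SE 0.16), -0.14 (SE 0.24) and 0.20 (SE 0.28), with limma adjusted p of at least 0.850. Of all genes tested, 55.2% were positive, and 6.01% were higher and 3.07% lower at an unadjusted p under 0.05. In the wider list of 10 mitochondrial chaperones and proteases, 4 were positive and 0 were under that p. The smallest p were those of the proteases Clpp, at 40.5 ± 5.29 (KO) and 32.7 ± 8.73 TPM (WT), and Lonp1, at 11.2 ± 3.56 and 8.43 ± 0.542 TPM (SD, n = 4; limma adjusted p = 0.650 and 0.691).

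The median fold change of the ER members was above that of the cytosolic members in each setting that left out libraries. With all libraries the gap between the medians was 0.66. With 1 library left out the ER median was 0.33 to 0.58 and the cytosolic median -0.29 to -0.12. The gap was 0.44 without KO 3 and KO 4, 0.36 without WT 6 and WT 9 and 0.21 without both pairs, where 2 libraries a group remained. In that last setting the ER median of -0.078 lay near the -0.11 of all genes tested, and the cytosolic median was -0.29. The pairs held the highest KO and the lowest WT sums of the ER members. Lower ER medians without them follow in part from that choice.

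**Figure D5:**
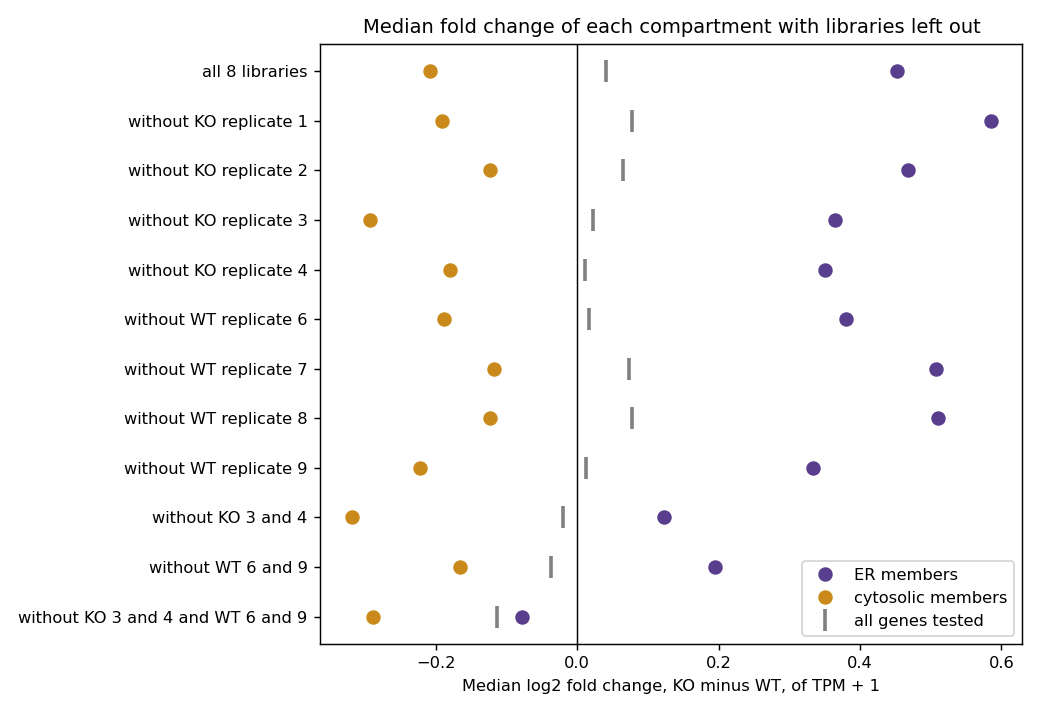
Median log2 fold change, KO minus WT, of TPM + 1 (x axis) of the 18 ER members, the 14 cytosolic members and all genes tested, with all 8 libraries and with libraries left out (y axis). The ER median is above the cytosolic median in each row and near that of all genes tested when KO 3, KO 4, WT 6 and WT 9 are left out.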

How the data were processed

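RNA-seq libraries (modified SMART-Seq2, Nextera XT, paired reads of 38 bases) were deposited as 1 table of 20029 genes. Its values are a score that the authors named a TPM-normalized count: whole numbers summing to 2223162 to 3342847 per library. Per the submitters' processing notes the tool was RSEM 1.3.3 and the build mm10; which aligner, annotation and scaling step were used is not given in the sources used here. The depth is unknown, so no counting intervals are given; 1 deposited unit equals 0.299 to 0.45 TPM, and 11935 to 13300 genes were above 0 per library. The design foresaw TPM, so the values were rescaled to add up to 1000000 per library.

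A gene was tested if 4 or more libraries (or as many as the smaller group held, with libraries left out) reached 1 TPM, which left 10732 genes. The test was limma 3.58.1 (R 4.3.3) on log2(TPM + 1) with genotype alone in the model, a mean trend, and Benjamini-Hochberg adjustment over all genes tested. Fold changes on this scale understate those of low genes. Other steps used pandas 2.3.3 and numpy 2.4.6 under Python 3.11.15. On data simulated for this comparison (10732 genes, 200 changed), 62.2% of changes of 1 on the log2 scale and 95.2% of changes of 2 were called, and 4.87% of calls were false. Only genes of middle level were changed, by 1 to 4, and noise was drawn independently for each gene and library. Changes below 1, such as the ER and cytosolic medians of 0.45 and -0.21, were not simulated, so their recovery is unknown. The real libraries differ in ways shared by many genes, so these shares can overstate what would be called here. Coordinates are from GENCODE M21 (mm10), 1-based.

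The members and gene lists were chosen with earlier results of these data known, so counts over them are descriptions. Per-library values are given for members with an unadjusted p under 0.05 or groups apart, for Xbp1, Hsf1, Hspa5, Hspa8, Hspa1a and Hspa1b, and for the 2 members of smallest p per compartment; some others were added after their values were seen. Wider lists name their 2 genes of smallest p, and Ppp1r15a was added after its values were seen. Alternatives varied the pseudocount, filter, scaling, limma options and the Hspa1a and Hspa1b rows, and left out libraries.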

Additional observations from a re-analysis of the deposited data

Results flagged for a closer look

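A library that stood apart from the other 3 of its group was looked for in each of the 35 members in both groups, 70 groups of 4 in all, by the gap to its neighbour relative to the group's range. Of these 70, 3 were marked, and chance marks about 1 in 20. Hspa4 was at 22.9 TPM in KO 1, with 64.7 TPM or more in the other KO libraries. Pdia4 was also low in KO 1, at 65.1 TPM against 101 to 108 TPM. Hsf1 was at 35.6 TPM in KO 3, beside 38.7 to 39.0 TPM, a gap that is small in itself.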

How the results depend on the processing

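No paired analysis was possible because no replicate number occurs in both groups (1 to 4 in KO, 6 to 9 in WT). In the 22 alternatives 0 members passed the adjusted limma threshold (smallest adjusted p 0.147). The sign of the fold change held in every alternative for 6 of 18 ER, 5 of 14 cytosolic and 0 of 3 mitochondrial members. Among them were Vimp, Herpud1, Hspa5, Manf, Calr, Dnaja1, Dnajb1 and Hsph1. The alternatives of filter and limma options cannot alter a fold change, and summing Hspa1a and Hspa1b cannot alter that of other genes. A sign could turn only in the rest. The settings that drop pairs of libraries were added after seeing the data, and the cause of the changes below was not tested. Counts at an unadjusted p below are descriptions, since the shares of all genes in those settings are not given here. The depth of the libraries is unknown.

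With 1 library left out, the number of members higher in KO at an unadjusted p under 0.05 was 3 to 12 (5 with all libraries; 12 without KO 1, 3 without KO 3, KO 4 or WT 6), and the number of positive cytosolic members 1 to 4. The fold changes then ranged over -0.67 to 0.42 for Hspa1a, -0.86 to 0.19 for Hspa1b, -0.12 to 0.44 for Hspa4, -0.13 to 0.0056 for Hsp90aa1, -0.022 to 0.042 for Hsp90ab1, -0.15 to 0.29 for Bag3, -0.080 to 0.13 for Hspd1, -0.31 to 0.013 for Hspe1, -0.049 to 0.39 for Hspa9 and -0.074 to 0.14 for Edem1. With values as deposited, 10 members were higher and 0 lower at that p, 8 cytosolic members were positive, the cytosolic median was 0.022, and the signs of these turned: Hspa1a 0.0050, Hspa8 0.16, Hsp90aa1 0.18, Stip1 0.039, Hsf1 0.12, Hspe1 0.094, Dnajb9 0.068 and Dnajc3 0.015. All of that follows a shift of the median of all genes to 0.27; relative to it the medians were 0.42 (ER) and -0.24 (cytosolic), and with rescaling 0.41 and -0.25. When the total left out ribosomal proteins and the 20 most abundant genes, 1 cytosolic member was positive, with Hspa4 -0.069, Hsp90ab1 -0.12, Hspd1 -0.10 and Edem1 -0.086. Quantile normalization gave Hspa8 0.0091, Hspa4 -0.0044, Hsp90ab1 -0.10, Hspd1 -0.090 and Edem1 -0.0098, and median-ratio scaling Hsp90ab1 -0.032, Hspd1 -0.018 and Edem1 -0.0017. With the mitochondrial members counted as cytosolic, 5 of 17 were positive.

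Without KO 3 and 4, 2 members were higher at that p and 0 cytosolic members were positive, with Hspa4 -0.34, Hsp90ab1 -0.048, Bag3 -0.14, Hspd1 -0.17, Hspe1 0.043, Hyou1 -0.18, Sdf2l1 -0.21, Pdia4 -0.018 and Xbp1 -0.22. Without WT 6 and 9, 3 were higher, with Hspa4 -0.16, Hsf1 0.055, Hspe1 0.25, Sdf2l1 -0.15, Pdia4 -0.0065, Xbp1 -0.036, Edem1 -0.17 and Sel1l -0.11. Without both pairs, 3 were higher, 7 ER members were positive, the ER median was -0.078 and its gap to the cytosolic median 0.21, with Hspa4 -0.57, Bag3 -0.27, Hsf1 0.088, Hspd1 -0.047, Hspe1 0.43, Hsp90b1 -0.16, Sdf2l1 -1.04, Creld2 -0.087, Pdia3 -0.057, Pdia4 -0.17, Pdia6 -0.069, Xbp1 -1.02, Edem1 -0.20 and Sel1l -0.21.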
